A study of Homo sapiens with 6 samples.

Results

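MHC class I molecules carry peptides from inside the cell to its surface. The 9 genes described here encode parts of that route, and were chosen by symbol from the 23228 genes listed for every library. They are the heavy chain genes HLA-B, HLA-C, HLA-E and HLA-F, the light chain gene B2M, the peptide transporter subunits TAP1 and TAP2, the loading chaperone TAPBP and the transactivator NLRC5. They are not all the class I heavy chain genes of the human genome.

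RNA was measured in 6 libraries. All came from MDA-MB-231, an established human line of triple-negative breast cancer, grown in DMEM with 10% fetal bovine serum. The 3 scramble libraries came from cells given lentivirus with a scrambled short hairpin RNA (shRNA), and the other 3, labelled SCUBE3 knockdown, from cells given lentivirus with an shRNA against SCUBE3, which encodes a secreted protein. Cells of both groups went through puromycin selection, and no group without virus was among the libraries. The labels name 1 cell line, do not say how many shRNA sequences were used, and do not say that replicates were separate cultures. The p-values therefore cover only how far these libraries spread, and that spread may be technical.

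The RNA of the targeted gene did not bear out the labels. SCUBE3 reads numbered 96, 91 and 80 in scramble and 99, 107 and 101 in the other group, or 3.92 ± 0.361 and 4.13 ± 0.0805 reads per 1000000 reads in genes (CPM; SD, n = 3). The log2 fold change was 0.03 ± 0.14 (SE; adjusted p = 0.871 by edgeR). Each adjusted p by edgeR is from its quasi-likelihood test with Benjamini-Hochberg adjustment over all genes tested. The group is therefore called the libraries labelled knockdown, and each direction below rests on that label.

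Reads in genes ranged from 21348509 to 25520901 per library. Of 13606 genes tested, 11681 (85.9%) passed the adjusted p of 0.05, so that a pass by itself sets no gene apart here. The 4 markers listed as high in MDA-MB-231 were read in both groups, VIM at 4292 and 2437 CPM, AXL at 1258 and 1160, CD44 at 567 and 1064 and EGFR at 387 and 224. Of the 4 listed as low, ESR1 averaged 0.116 and 0 CPM and EPCAM 14.3 and 15.7 CPM. PGR went from 0.965 to 0 CPM, while CDH1 went the other way, from 0.0450 to 2.05 CPM. The leukocyte gene PTPRC had 2 to 4 reads in each library and the B cell gene MS4A1 had 0 in all 6. Summed over 7 leukocyte markers the level was 278 to 285 CPM in scramble and 161 to 172 CPM in the other group, and CD68 made up nearly all of it, while CD14 went the other way, from 0.230 to 6.31 CPM. Summed fibroblast and pericyte markers lay at 3.15 to 4.78 and 13.4 to 14.6 CPM, with DCN at 0 in all libraries. In that list PDGFRB went from 1.51 to 11.2 CPM and LUM from 0 to 0.633, while ACTA2 went the other way, from 2.65 to 2.045 CPM. Summed endothelial markers lay at 0.798 to 1.44 and 2.65 to 2.90 CPM. Luminal breast markers summed to 570 to 594 and 500 to 511 CPM, mostly from KRT8 and KRT18. Within that list FOXA1 went from 21.4 to 0.0542 CPM and GATA3 from 5.81 to 15.8 CPM. Dendritic cell markers summed to 0.133 to 0.165 and 0 to 0.0784 CPM, with CD1C at 0 in all. What these marker shifts contribute to the results was not tested, and in bulk RNA fewer cells of a type and less RNA per cell cannot be told apart.

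A class I molecule is a heavy chain paired with beta-2-microglobulin, the product of B2M, and it is stable once a peptide fills its groove. Proteasomes cut proteins into peptides, the TAP1 and TAP2 heterodimer pumps these into the endoplasmic reticulum, and tapasin, the product of TAPBP, holds empty class I molecules at the transporter while peptides are exchanged. HLA-B and HLA-C are classical, highly variable heavy chains, HLA-E presents signal peptides of other class I chains and is read by NK cell receptors, and HLA-F is a less abundant non-classical chain. NLRC5 is a transactivator without a DNA-binding domain of its own, brought to class I promoters by factors bound at the so-called SXY module. Interferon and NF-kB signalling are known to raise many of these genes, and low class I expression is common in tumours.

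The promoters of the genes show the elements through which such factors are known to act, and they differ in which elements they hold. RefSeq promoter sequences (GRCh38.p14) were matched for 7 of the 9 genes, HLA-E and NLRC5 being the others. They were searched on both strands over the 250 bases before the start of the gene. Capitals below mark matches to the 10-letter kB consensus and to the long interferon response pattern, which is GAAA, any 2 bases and GAAA again. They also mark its short form GAANNGAAA, which can overlap it. A further mark is TGACG, the core of CREB-type sites. The last is the core of NF-Y sites, CCAAT, which reads ATTGG when it lies on the opposite strand. Each window is printed 5′ to 3′ in the direction of the gene, and is cut to the stretch that holds the matches. The heavy chain windows are those of HLA-B (chr6:31357223-31357364, minus strand), HLA-C (chr6:31272136-31272292, minus strand) and HLA-F (chr6:29723270-29723389, plus strand), shown because their genes resemble each other and differ in level.
HLA-B: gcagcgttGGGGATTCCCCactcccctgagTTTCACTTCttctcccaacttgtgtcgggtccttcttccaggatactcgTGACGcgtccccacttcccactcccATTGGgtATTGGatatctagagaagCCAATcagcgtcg
HLA-C: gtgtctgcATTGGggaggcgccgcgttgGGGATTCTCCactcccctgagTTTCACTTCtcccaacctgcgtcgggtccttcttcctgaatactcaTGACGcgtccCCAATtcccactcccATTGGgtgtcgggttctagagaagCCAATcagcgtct
HLA-F: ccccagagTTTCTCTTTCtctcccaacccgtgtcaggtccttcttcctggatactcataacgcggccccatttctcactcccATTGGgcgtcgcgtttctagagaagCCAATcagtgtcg
The light chain, transporter and chaperone windows are those of B2M (chr15:44711365-44711480, plus strand), TAP1 (chr6:32853759-32853954, minus strand), TAP2 (chr6:32838762-32838810, minus strand) and TAPBP (chr6:33314079-33314142, minus strand), shown because their products assemble and load class I molecules.
B2M: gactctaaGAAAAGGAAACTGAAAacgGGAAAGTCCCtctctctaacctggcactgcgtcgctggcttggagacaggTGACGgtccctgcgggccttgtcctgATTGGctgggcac
TAP1: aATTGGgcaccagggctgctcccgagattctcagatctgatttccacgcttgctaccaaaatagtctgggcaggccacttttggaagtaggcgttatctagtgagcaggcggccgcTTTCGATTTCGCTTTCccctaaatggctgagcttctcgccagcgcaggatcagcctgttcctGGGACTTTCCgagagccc
TAP2: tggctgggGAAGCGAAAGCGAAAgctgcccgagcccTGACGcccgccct
TAPBP: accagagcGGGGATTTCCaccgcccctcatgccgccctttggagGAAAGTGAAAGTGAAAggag

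HLA-B, HLA-C and B2M held a TGACG followed 15 to 35 bases on by ATTGG, a spacing found in 0.365% of 35116 RefSeq promoters of the same length. The kB consensus matched in HLA-B, HLA-C, B2M, TAP1 and TAPBP, against 9.96% of all promoters. The long interferon response pattern matched in HLA-F, B2M, TAP1, TAP2 and TAPBP (3.02% of all promoters), and the short form in HLA-B, HLA-C and TAP2 (6.56%). TGACG alone is in 21.2% of promoters and CCAAT in 32%. Over the 250 bases HLA-B and HLA-C were 91.9% identical, and HLA-F was 83.7% identical to HLA-B and 82.7% to HLA-C. A match is a description of the letters. No match to the kB consensus or TGACG lay in the HLA-F window, which says only that these letters are not in it.

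All 9 genes passed the filter on low counts. HLA-F did so only through the libraries labelled knockdown, so its direction adds nothing to the counts that follow, which include it. All 9 were higher in the libraries labelled knockdown, beside 43.4% of all genes tested, and 0 were lower, beside 42.5%. Their median log2 fold change was 2.62, against 0.01 over all genes. In none of the 9 did the 3 libraries of the groups overlap, which holds in that direction for 45.6% of all genes. With log2 fold changes of at least 1, as 7 of the 9 had, the share of all genes is 17.5%. Against a 1.5-fold change (edgeR glmTreat), 7 of 9 passed, beside 24.3% of all genes, and B2M and TAP2 did not.

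**Figure D1:**
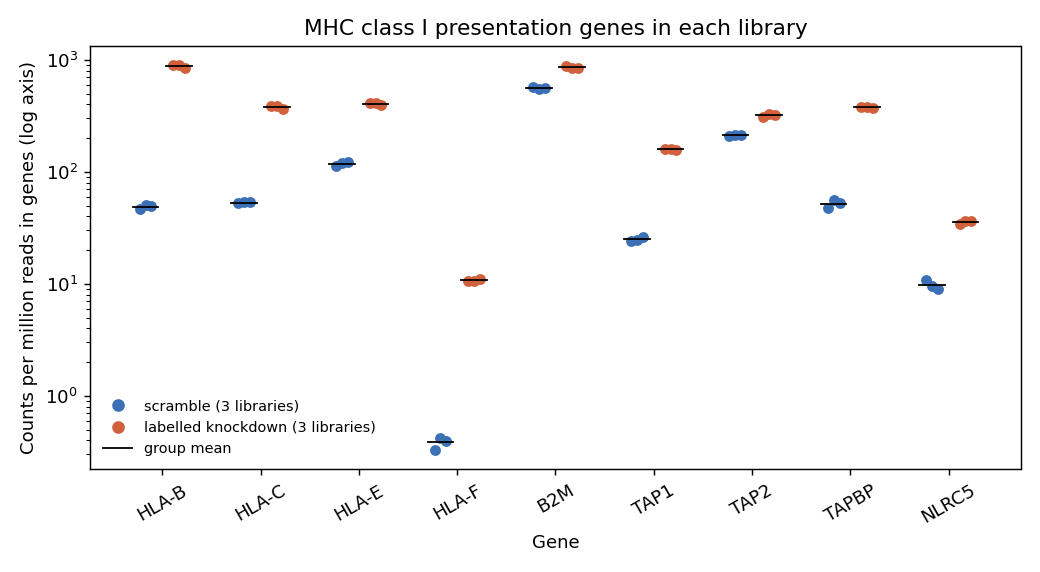
Level of each of the 9 genes in each library, in CPM on a log axis. Points are single libraries and bars the group means, scramble beside labelled knockdown. The groups are apart for every gene, from 0.384 to 10.8 CPM for HLA-F and from 48.6 to 880.2 CPM for HLA-B, and closest for B2M and TAP2.

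HLA-B showed the widest rise in CPM. It stood at 46.4, 50.1 and 49.2 CPM in the scramble libraries and at 892, 895 and 853 CPM in those labelled knockdown. Each labelled knockdown library lay far above each scramble library, and within a group the libraries differed little. The log2 fold change was 4.13 ± 0.04 (SE; adjusted p = 5.01e-46 by edgeR), or 17.5-fold. Among all 23228 genes listed, ordered by mean CPM, HLA-B moved from place 5040 to place 69.

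HLA-C, which in scramble was slightly above HLA-B, rose less. Its levels were 52.2, 53.6 and 53.6 CPM in scramble and 384, 389 and 363 CPM in the other group, without overlap. The log2 fold change was 2.78 ± 0.04 (SE; adjusted p = 8.05e-40 by edgeR). HLA-E was the most abundant of the 4 heavy chain genes in scramble, at 113, 120.0 and 121 CPM, and stood at 407, 408 and 398 CPM in the libraries labelled knockdown. The groups did not overlap, and its change was the smallest of the heavy chain genes, with a log2 fold change of 1.73 ± 0.03 (adjusted p = 1.43e-34 by edgeR).

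HLA-F was close to unread in scramble, with 8, 9 and 9 reads, and had 261, 268 and 269 reads in the other group. In CPM this was 0.330, 0.422 and 0.399 against 10.7, 10.5 and 11.1, again without overlap. Its log2 fold change was the largest of the 9 genes and the least precise, 4.75 ± 0.19 (SE; adjusted p = 2.63e-24 by edgeR). Even so HLA-F remained the lowest of the heavy chain genes in both groups. GENCODE places the antisense gene HLA-F-AS1 across HLA-F, and whether reads were assigned by strand is not given in the sources used here.

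The 4 heavy chain genes together summed to 219.9 ± 7.34 CPM (SD, n = 3) in scramble and, with the knockdown label, to 1674 ± 42.3 CPM, 7.61 times as much. HLA-B supplied more than its earlier share of that rise. It made up 21.9 to 22.4% of the 4 genes' reads in scramble and 52.5 to 52.7% in the other group, while HLA-E went from between 53.2 and 54.0% to between 24.0 and 24.5%. HLA-C kept a similar share, 23.9 to 24.7% and 22.3 to 22.8%, and HLA-F stayed under 1%, at 0.156 to 0.188% and 0.617 to 0.683%. Without HLA-B, the rise of the sum was 622 CPM in place of 1454 CPM.

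Ratios of reads within a library need no scaling between libraries. The log2 ratio of HLA-B to HLA-C was -0.13 ± 0.0375 in scramble libraries and 1.22 ± 0.0143 in the others (SD, n = 3), a difference of 1.35. That of HLA-B to HLA-E went from -1.28 ± 0.0207 to 1.12 ± 0.0190, a difference of 2.40. In both ratios the groups were separated by many times their spread. With 3 libraries against 3, the exact two-sided permutation p of each of the 7 ratios and sums compared was 0.1, the smallest the design allows, and 0.1 after Benjamini-Hochberg adjustment over the 7.

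Heavy chain reads are alike in sequence, which limits how they can be told apart. HLA-B and HLA-C transcripts were 92.6% identical and the other heavy chain pairs 77.2 to 83.1% (1 GENCODE v29 transcript per gene). Of all 50-base stretches, the length of the reads, 2.54% in HLA-B, 6.79% in HLA-C, 5.13% in HLA-E and 1.7% in HLA-F also occurred in another gene's transcripts. In GENCODE v29 the HLA-B and HLA-C loci also overlap by 2640 bases on the same strand. The annotation used for counting is not given. If it holds this overlap, the ratio of HLA-B to HLA-C reads depends on how such reads were assigned. These genes vary between people, and a reference holds 1 allele of each, so reads of the cell line's own alleles may have been lost or moved between genes. The size of that was not tested. Reads aligned to several places made up 34.0 to 34.2% of the scramble files and 29.3 to 29.6% of the others, and whether this touched the HLA genes was not tested.

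B2M changed far less than the chains it pairs with. Its levels were 577, 550.5 and 560.4 CPM in scramble and 878, 851 and 853 CPM in the other group, without overlap. The log2 fold change was 0.56 ± 0.03 (SE; adjusted p = 7.65e-21 by edgeR), or 1.48-fold, and it did not pass against a 1.5-fold change (glmTreat adjusted p = 0.927). Reads of the 4 heavy chain genes per B2M read were 0.366 to 0.407 in scramble and 1.91 to 2.0 with the knockdown label. On the log2 scale that ratio went from -1.36 ± 0.0819 to 0.96 ± 0.0362 (SD, n = 3). B2M transcripts shared no 50-base stretch with another gene.

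**Figure D2:**
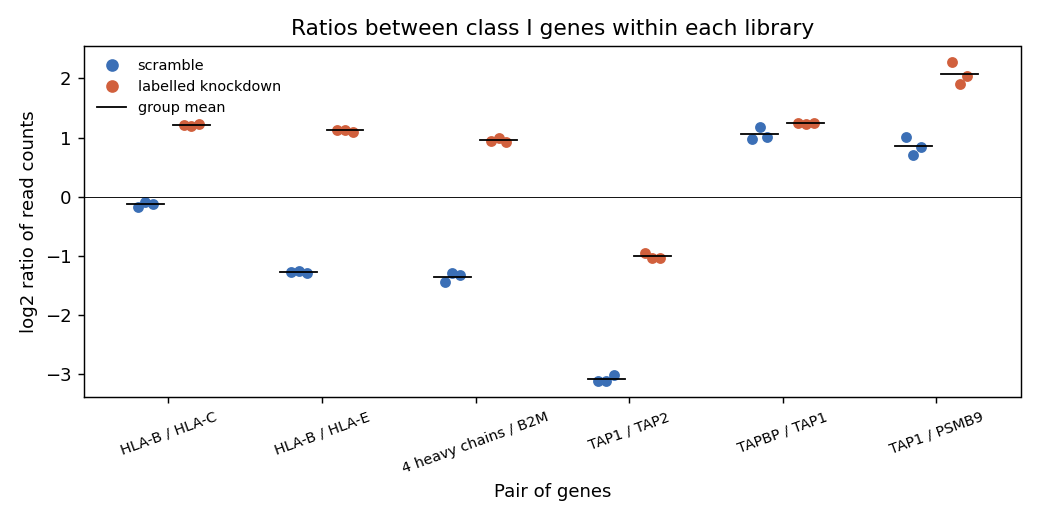
Log2 ratios of reads within each library, one point per library and a bar for the group mean, scramble beside labelled knockdown. The 4 heavy chain genes to B2M, HLA-B to HLA-E and TAP1 to TAP2 moved most, by 2.32, 2.40 and 2.07, and TAPBP to TAP1 least, by 0.18.

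The transporter subunits, which act as a heterodimer, changed unequally. TAP1 stood at 24.0, 24.5 and 26.1 CPM in scramble and at 159, 160 and 158 CPM in the other libraries, with a log2 fold change of 2.62 ± 0.05 (SE; adjusted p = 3.38e-36 by edgeR). TAP2 was the more abundant subunit in both groups, at 209, 214 and 212 CPM and at 310, 330.1 and 323 CPM, and its log2 fold change was 0.55 ± 0.03 (adjusted p = 9.40e-19 by edgeR). Neither gene's groups overlapped, but TAP2 did not pass against a 1.5-fold change (glmTreat adjusted p = 1.0).

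For each 100 reads of TAP2 there were 11.5 to 12.4 of TAP1 in scramble and 48.4 to 51.4 in the other group. The log2 ratio of TAP1 to TAP2 was -3.09 ± 0.0610 and -1.01 ± 0.0465 (SD, n = 3), so that TAP1 stayed below TAP2 while the gap narrowed. A readthrough gene spans the TAP2 locus, and PSMB9 and an antisense gene lie across or beside TAP1 on the other strand, so that some reads of these loci may belong to neighbours.

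TAPBP moved with TAP1. It stood at 47.4, 55.6 and 52.8 CPM in scramble and 379, 375 and 373 CPM in the other group, without overlap. The log2 fold change was 2.81 ± 0.04 (SE; adjusted p = 6.36e-39 by edgeR). The log2 ratio of TAPBP to TAP1 went from 1.06 ± 0.108 to 1.24 ± 0.0103 (SD, n = 3), a difference of 0.18 that is small beside those of the other ratios.

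NLRC5, the transactivator of class I genes, was read at 10.7, 9.56 and 8.91 CPM in scramble and 34.1, 36.4 and 36.2 CPM in the other group. The groups did not overlap, and the log2 fold change was 1.81 ± 0.07 (SE; adjusted p = 7.86e-24 by edgeR). GENCODE lists an antisense gene that overlaps NLRC5. HLA-F, HLA-B, TAPBP, HLA-C and TAP1 had larger fold changes than NLRC5, and HLA-E, B2M and TAP2 smaller ones.

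Levels of different genes can be compared only per length, here in CPM per kilobase of 1 transcript. In scramble the order ran from B2M (330.1) through TAP2 (84.7), HLA-E (45.3), HLA-C (34.6), HLA-B (31.4), TAPBP (27.5) and TAP1 (8.41) to NLRC5 (1.43) and HLA-F (0.235), all in CPM per kilobase. In the libraries labelled knockdown HLA-B (569) came first, ahead of B2M (504.7), and HLA-C (246.5), TAPBP (199), HLA-E (155.5), TAP2 (128.5), TAP1 (53.7), HLA-F (6.58) and NLRC5 (5.21) followed. No neighbours in either order overlapped in their 3 libraries. TAP2 moved from the second place to the sixth although its own level was higher.

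Together the 9 genes took 0.108% of the reads in genes in scramble and 0.337 to 0.346% in the other group. Of the 13606 genes tested, 308 had a larger log2 fold change than HLA-F, 377 than HLA-B, and 3972 than TAP2.

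By Euclidean distance over the 6 libraries in log2(CPM + 1) after the scramble mean was taken off, the genes with the pattern closest to HLA-B were EFEMP1 (distance 0.169), CD82 (0.174), MATN2 (0.194), RARRES2 (0.202) and CYP1B1 (0.206). Closest to B2M were CNP (0.0281), RNF11 (0.0347), TANC1 (0.0362), JKAMP (0.0551) and RAP2C (0.0559). RARRES2 went from 0.0460 to 19.1 CPM and had a log2 fold change of 8.55, since adding 1 to each CPM shrinks the change of a gene that low.

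Other genes of the pathway were counted in lists made from textbook roles. All 5 other heavy chain genes and heavy chain pseudogenes tested were higher, beside 43.4% of all genes, with a median log2 fold change of 3.04. Among them HLA-G, a non-classical heavy chain, had 1, 3 and 0 reads in scramble and 67, 56 and 59 in the other group. The pseudogenes HLA-H (log2 fold change 2.71) and HLA-L (0.50) were higher, and HLA-J had 0, 2 and 4 reads in scramble and 64, 82 and 73 in the other group. Reads of such pseudogenes can come from the heavy chain genes they resemble, which was not tested. HLA-G and HLA-J passed the filter on low counts only through the libraries labelled knockdown, so their direction adds nothing to the count of 5.

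Of 6 class I-like genes tested 5 were higher and 1 was lower, beside 43.4% and 42.5% of all genes, and the median was 1.37. FCGRT, the neonatal Fc receptor heavy chain, had a log2 fold change of 5.16, the NKG2D ligands MICA and MICB had 1.69 and 1.03, and HFE, a regulator of iron uptake, had 1.49. FCGRT and HFE proteins also pair with beta-2-microglobulin. The gene that was lower, named after its value was seen, was PROCR (-0.57), the endothelial protein C receptor. The 5 stayed higher against a 1.5-fold change, beside 24.3% of all genes, and 0 were lower, beside 2944 of 13606 genes.

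The other peptide loading and endoplasmic reticulum genes moved much less than TAPBP. Of 8 tested 6 were higher, 1 was lower and 1 did not pass, around a median of 0.30 (log2 fold change). The shares of all genes were 43.4% higher and 42.5% lower. ERAP1, which trims peptides in the endoplasmic reticulum, was higher at 1.49 ± 0.04 (SE), from 54.9 to 159 CPM. The chaperone CALR (0.42) and the export factor BCAP31 (0.58) were higher by less, and the folding sensor UGGT1 was lower (-0.30). TAPBPL, a relative of TAPBP and named after its value was seen, had -0.19 and an adjusted p of 0.245 by edgeR. Only 1 of the 8 was higher against a 1.5-fold change, beside 24.3% of all genes, and 0 were lower, beside 2944 of 13606 genes.

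All 5 immunoproteasome genes were higher, beside 43.4% of all genes, with a median of 1.16. The catalytic subunits PSMB8, PSMB9 and PSMB10 had log2 fold changes of 1.16, 1.41 and 1.56, and the activators PSME1 and PSME2 0.84 and 1.04. In GENCODE v29 PSMB9 lies across TAP1 on the other strand, with an overlap of 8770 bases. The log2 ratio of TAP1 to PSMB9 reads went from 0.85 ± 0.158 to 2.08 ± 0.190 (SD, n = 3). Whether reads of these genes were mixed was not tested. Of the 3 constitutive catalytic subunits, which immunoproteasome subunits replace, PSMB5 (0.55) and PSMB6 (0.12) were higher and PSMB7 lower (-0.08). The PSMB7 call was lost with library totals in place of TMM factors, at an adjusted p of 0.01, and without labelled knockdown replicate 1 or 3, each leaving 0 lower. None of the 3 passed against a 1.5-fold change, beside 24.3% of all genes higher and 2944 of 13606 lower.

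Of 7 cytosolic peptidases tested 5 were higher, 1 was lower and 1 did not pass (median 0.32). Among all genes 43.4% were higher and 42.5% lower. TPP2, a large peptidase that shortens proteasome products, was lower (-1.28), and NPEPPS (1.12), THOP1 (0.60) and LAP3 (0.59) were higher. In the test against a 1.5-fold change 1 was higher, beside 24.3% of all genes, and 1 lower, beside 2944 of 13606 genes.

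**Figure D3:**
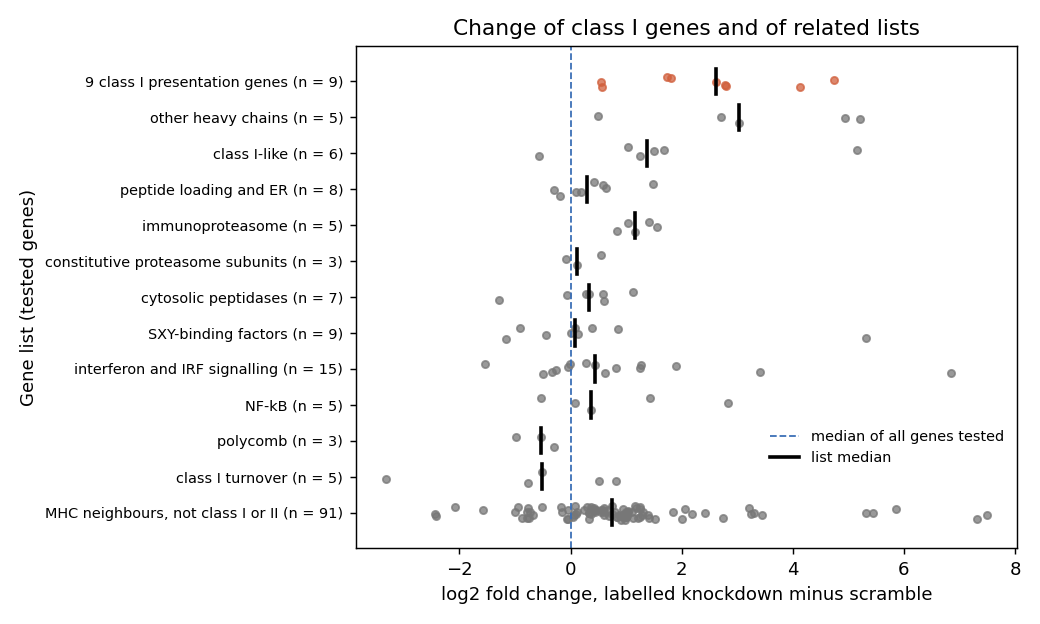
Log2 fold change, labelled knockdown minus scramble, of each tested gene in the 9 class I presentation genes and in the related lists. Points are genes, short bars list medians, and the dashed line the median of all genes tested. The class I genes have a median of 2.62 and all of them lie above 0, whereas peptide loading and endoplasmic reticulum genes centre on 0.30 and polycomb genes on -0.53.

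The factors that bind or act at class I promoters did not move as 1 group. Of 9 factors that bind the SXY module or act through it, CIITA among them, 3 were higher, 3 lower and 3 did not pass, with a median of 0.07. These counts stand beside 43.4% of all genes higher and 42.5% lower. CIITA, the class II transactivator and a relative of NLRC5, rose from 0.730 to 30.4 CPM, a log2 fold change of 5.31 ± 0.13 (SE), and RFXANK, a subunit of the RFX complex, was higher (0.85). CREB1 (-0.90) and ATF1 (-1.17), which bind CREB-type sites, were lower. Against a 1.5-fold change 2 of the 9 were higher, beside 24.3% of all genes, and 2 lower, beside 2944 of 13606 genes.

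Of 15 genes of interferon signalling 9 were higher, 4 lower and 2 did not pass, with a median of 0.44. Of all genes tested 43.4% were higher and 42.5% lower. IRF1, a factor that binds interferon response elements, rose from 19.98 to 77.3 CPM, with a log2 fold change of 1.90 ± 0.06 (SE). The feedback inhibitor SOCS1 had 6.85 and the receptor chain IFNGR2 1.27, while the inhibitor SOCS3 was lower (-1.54). SOCS1 had 1, 2 and 3 reads in scramble and passed the filter on low counts only through the other group. Against a 1.5-fold change 6 were higher, beside 24.3% of all genes, and 1 lower, beside 2944 of 13606 genes.

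Among the 5 NF-kB subunits RELB (2.84), NFKB2 (1.43), NFKB1 (0.37) and RELA (0.08) were higher and REL was lower (-0.54). Their median was 0.37, and 43.4% of all genes were higher and 42.5% lower. The RELA call was lost without scramble replicate 1 or 3, without labelled knockdown replicate 2 and at an adjusted p of 0.01, each leaving 3 higher. Against a 1.5-fold change 2 were higher, beside 24.3% of all genes, and 0 lower, beside 2944 of 13606 genes. The polycomb repressive complex genes EZH2 (-0.99), EED (-0.53) and SUZ12 (-0.30) were all lower, beside 42.5% of all genes. Of these 1 was lower against a 1.5-fold change, beside 2944 of 13606 genes.

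Genes known to remove class I molecules from the surface were mixed. Of 5 tested MARCH4, MARCH9 and WWP2 were lower and KIAA0247 (0.82) and TMEM127 (0.52) higher, with a median of -0.51. The shares over all genes were 42.5% lower and 43.4% higher. MARCH4, a membrane ubiquitin ligase, fell from 166 to 17.2 CPM, a log2 fold change of -3.32 ± 0.05 (SE), and MARCH9 and WWP2 had -0.77 and -0.51. Against a 1.5-fold change 1 of the 5 was higher, beside 24.3% of all genes, and 2 were lower, beside 2944 of 13606 genes.

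Of the 9 genes, 7 lie in the major histocompatibility complex on chromosome 6, with B2M on chromosome 15 and NLRC5 on chromosome 16. Between HLA-F and TAPBP in RefSeq gene order lie 91 tested genes that belong to neither class I nor class II. Of these 68 (74.7%) were higher and 15 lower, beside 43.4% and 42.5% of all genes tested, and their median log2 fold change was 0.75. The immunoproteasome genes PSMB8 and PSMB9 are among these neighbours. Against a 1.5-fold change 47 of the 91 were higher, beside 24.3% of all genes, and 9 lower, beside 2944 of 13606 genes. The 91 tested genes before HLA-F and the 91 after TAPBP, counted after the data were seen, were higher in 71.4% and 76.9% of cases, so the raised share was not limited to the stretch between them. TAP2, at 0.55, lay below the median of these neighbours, and HLA-B, HLA-C, HLA-F, TAP1 and TAPBP lay well above it. Within the complex C2, a complement component, had the largest fitted change (7.31) among neighbours with reads in both groups, and HCP5, a noncoding RNA gene, had 5.85. The cytokine gene TNF had 0 reads in scramble and 71 over the 3 other libraries, at least 21.7-fold higher against a floor of 3 reads over the group. The most negative changes were those of DDX39B (-2.45), PRRT1 (-2.42) and ATP6V1G2 (-2.08), of which DDX39B and ATP6V1G2 share a readthrough locus that makes their reads uncertain. Some of the 91 passed the filter on low counts only through 1 group. For C2, HCP5 and TNF it was the labelled knockdown libraries, and for ATP6V1G2 it was scramble.

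**Figure D4:**
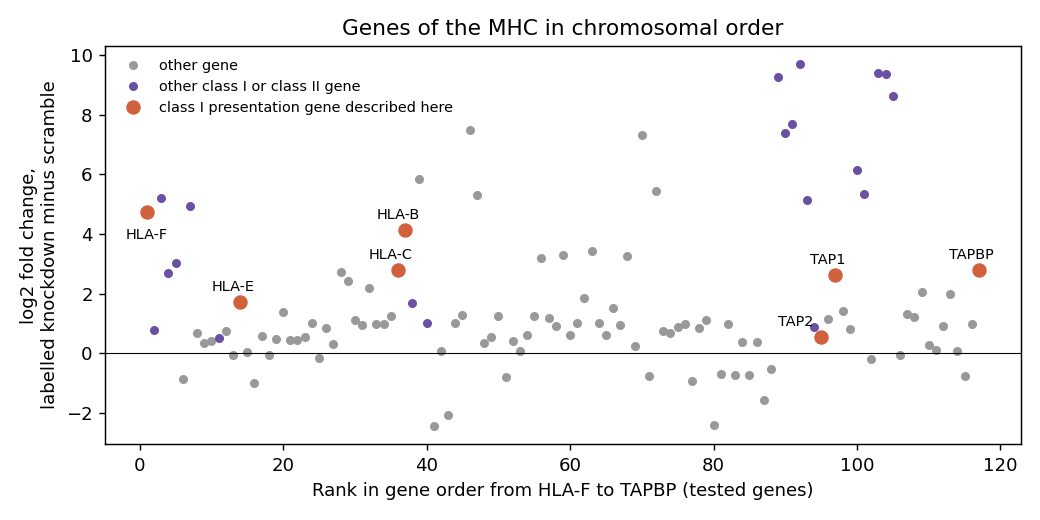
Log2 fold change, labelled knockdown minus scramble, of the tested genes from HLA-F to TAPBP against their rank in RefSeq gene order. Large points are class I presentation genes described here, dark points other class I and class II genes, and grey points the remaining 91, whose median is 0.75. TAP2, at 0.55, lies among the grey points, and genes without scramble reads, such as TNF, are drawn at their fitted value.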

How the data were processed

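PolyA RNA of 6 MDA-MB-231 libraries was sequenced with a stranded mRNA kit as single reads of 50 bases, per the labels' protocols. The authors deposited raw read counts for each gene symbol, without normalization. The submitters' processing notes name TopHat2 2.0.8b, HTSeq, bcl2fastq and the build hg19. For the strand setting, overlap mode and annotation, the value is not given in the sources used here. The 5 summary lines of each file entered neither library sizes nor tests: reads aligned to several places (29.3 to 34.2% of a file), in no gene (11.0 to 15.0%) and ambiguous (0.534 to 0.597%).

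Libraries were grouped by title, 3 per group. Within groups, counts differed beyond sampling noise (chi-square 1.69 to 3.55 per degree of freedom), and no library was treated as a copy. Genes kept by filterByExpr (13606 of 23228) were scaled by TMM and tested with edgeR 4.0.16 in R 4.3.3 (robust quasi-likelihood F test, two-sided, adjusted over all tested genes). Standard errors are the fold change over the root of F. CPM use library totals in genes. Read ratios (0.5 added to each count) and the heavy chain sum were compared by exact permutation tests. Of the 9 genes HLA-F has the largest counting error, and reads carry no molecular identifiers. The fit was tested on simulated data.

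The 9 genes, the lists, the tests and the alternatives were chosen with earlier results of these data known. Lists over 5 tested genes are named by their 4 smallest adjusted p-values, others in full, and for gene neighbours the 3 largest and 3 most negative changes. For likeness, the 5 closest genes are named. Some listed genes are not reported here. Gene order and promoters came from RefSeq (GRCh38.p14) and transcripts from GENCODE v29, and give no hg19 positions. The alternatives were 3 scalings, 2 filters, DESeq2 1.42.0, limma-voom (limma 3.58.1), a replicate block, each library left out, an adjusted p of 0.01, a 1.5-fold test, another pseudocount and the heavy chain sum without HLA-B.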

Additional observations from a re-analysis of the deposited data

How the results depend on the processing

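All 9 genes remained higher under each of the 16 alternatives, and 142 of 144 calls held. The exceptions were B2M (log2 fold change 0.56) and TAP2 (0.55) against a 1.5-fold change, where 3307 of all genes were higher and 2944 lower. With 1 library left out in turn, HLA-B ranged from 4.09 to 4.16, HLA-F from 4.64 to 4.81, B2M from 0.54 to 0.58 and TAP2 from 0.53 to 0.58, and all 9 stayed called. Replicate numbers did not pair the samples: deviations of same-numbered libraries correlated at 0.0171, 0.0064 and 0.0007, and scramble replicate 3 lay closer to the other group's replicate 2 (0.0218). With the number as a replicate block all 9 were higher, B2M again by 0.56, with 5919 of all genes higher and 5787 lower. Library totals shifted the median of all genes by 0.05, the most of any setting. The 7 exact tests cannot go below a p of 0.1, so they show nothing about stability. Depth limits HLA-F, read 8 or 9 times per scramble library.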

Other observations

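The share of higher genes around the class I genes differed by chromosome place. Among the 100 tested genes nearest B2M on chromosome 15, 50 on each side, 34 were higher and 56 lower (labelled knockdown against scramble), and their median log2 fold change was -0.29. Around NLRC5 on chromosome 16, 33 were higher and 60 lower, and the median was -0.35. B2M (0.56) and NLRC5 (1.81) thus lay above the median of their neighbours. Of all genes tested 43.4% were higher and 42.5% lower. These windows were added after the data had been seen, neighbouring genes are not independent, and no test was made.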
